A study of Mus musculus with 6 samples.

Results

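Natural killer (NK) cells are innate lymphocytes that kill infected or transformed cells. The genes described here were 10 NK cell and cytotoxic genes, chosen by name as granule, receptor and transcription factor genes of NK cells, out of 39179 mouse genes listed in the count files. *Nkg7*, *Gzma*, *Gzmb* and *Prf1* belong to the cytotoxic granule, *Klrb1c*, *Ncr1*, *Klrk1* and *Klrd1* encode surface receptors, and *Eomes* and *Tbx21* encode the T-box transcription factors of the lineage. The data were RNA-seq read counts of bone marrow from 6 littermate mice, 3 *MxCDX2* mice and 3 controls, and the question of the study was what human *CDX2* does when it is switched on in blood-forming cells. The 3 *MxCDX2* mice had the genotype *RsCDX2*::*Mx1Cre*, in which a stop sequence in front of human *CDX2* at the *Rosa26* locus is removed by a Cre recombinase under the interferon-inducible *Mx1* promoter. That promoter is not restricted to one blood lineage. Each control was a different genotype, in that control 1 was *RsCDX2*, control 2 was *Mx1Cre* and control 3 was wild type. All 6 mice, controls included, were treated at 3 months of age with 3 intraperitoneal injections of poly(I:C) at 10 µg per g, a synthetic double-stranded RNA that induces interferon, and RNA was prepared 6 weeks later. The labels give 1 injection a day, while the methods give a longer interval. Counts on mouse *Cdx2* were 4, 0 and 0 in controls 1, 2 and 3 and 152, 155 and 183 in *MxCDX2* mice 1, 2 and 3, which fits the labels. Reads were aligned to the mouse genome, so these counts do not tell reads of human *CDX2* from reads of mouse *Cdx2*.

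An NK cell weighs signals from activating and inhibitory receptors. When activation wins, it releases granules in which perforin opens the way for granzymes into the target cell, and T-bet and Eomes direct the development of these cells, which largely takes place in the bone marrow. The same granule genes are also used by cytotoxic T cells, and several of the receptors are found on other lymphocytes.

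The 6 libraries held between 38646101 and 49899650 reads on genes. All 10 genes were detected in every mouse, with between 70 (*Tbx21*, *MxCDX2* mouse 3) and 3585 reads (*Nkg7*, control 3), and all 10 passed the filter on low counts that left 15980 genes for testing. Values below called normalized counts are reads scaled to the mean effective library size of the 6 mice by edgeR's TMM method. A gene was called changed when its log2 fold change exceeded 1 in either direction and its adjusted p-value was below 0.05, the thresholds that the study uses. P-values came from the quasi-likelihood test of edgeR, adjusted by the Benjamini-Hochberg method over all tested genes. In bulk marrow, fewer NK cells and less RNA per NK cell cannot be told apart, and a difference can also follow from the other cells that share the library. Each mouse is 1 library, and the 3 controls differ in genotype, so the spread among controls holds genotype as well as mouse.

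Of the 10 genes, 1 was called changed, *Klrb1c*, which fell in *MxCDX2* mice. Over all tested genes, 13.6% were called changed, 9.03% lower and 4.59% higher, so that 1 of 10 is near the background. The log2 fold change was below 0 for 8 of the 10 genes and above 0 for *Gzmb* and *Klrk1*, with a median of -0.93, while over all tested genes 49.9% lay below 0 and the median was 0.0021. The *MxCDX2* mice did not overlap the controls for *Nkg7* and *Klrb1c*, 2 of the 10 genes, against 42.1% of all tested genes. DESeq2, the tool of the study, called 2 of the 10 with the same thresholds, *Nkg7* and *Klrb1c*, against 15.7% of the genes to which it gave an adjusted p-value.

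**Figure D1:**
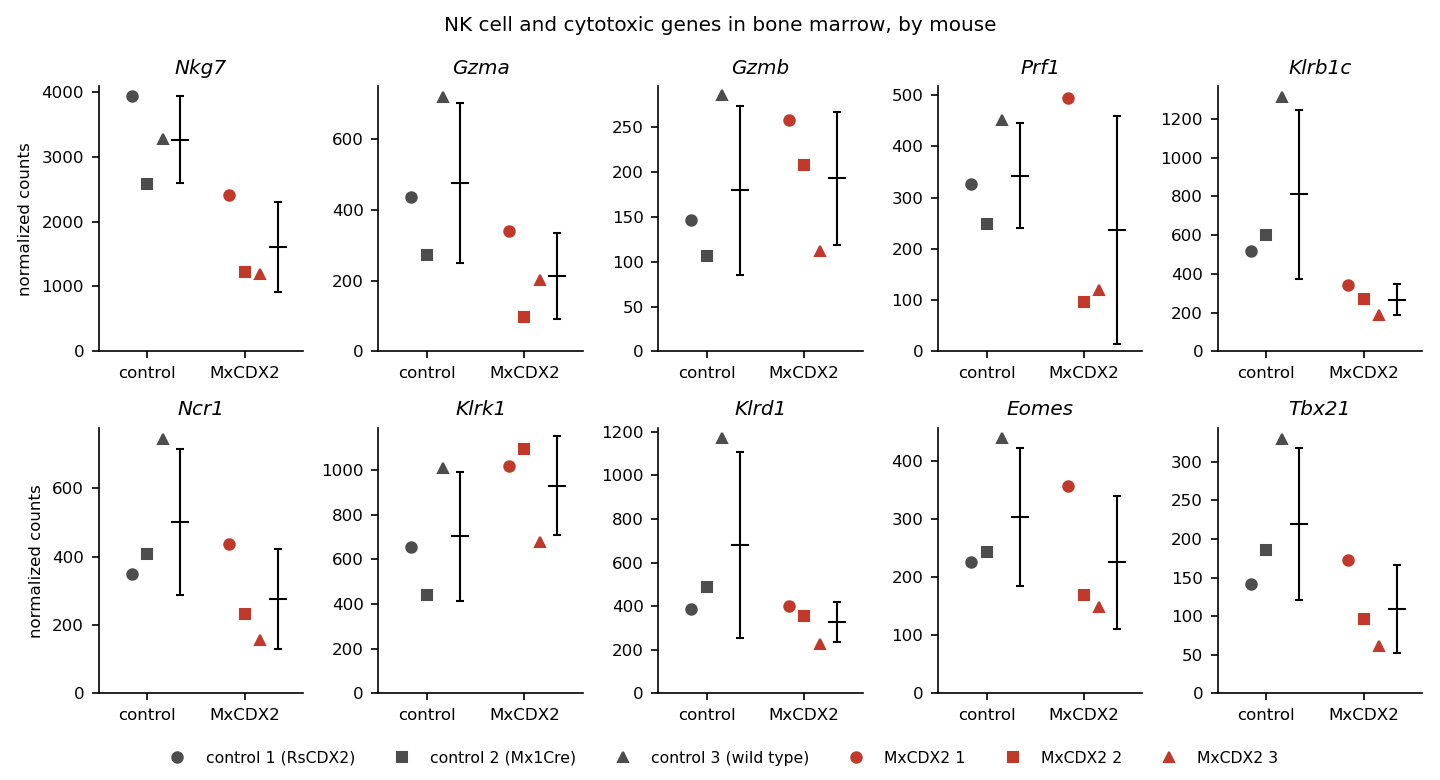
Normalized counts (linear axes from 0) of the 10 genes in each of the 3 control and 3 MxCDX2 mice, where points are mice, the shape only names the mouse within its group, and the bar gives the mean with its SD. The wild-type mouse, control 3, is the highest control in 9 of 10 panels and MxCDX2 mouse 1 the highest of its group in 9 of 10, and the groups are apart in the panels of Nkg7 and Klrb1c.

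*Nkg7* encodes a membrane protein of the cytotoxic granule that takes part in its release, and it lies at chr7:43437073-43438249 (GRCm38, plus strand). Its normalized counts were 3932, 2583 and 3268 in controls 1, 2 and 3 and 2401, 1223 and 1200 in *MxCDX2* mice 1, 2 and 3. Every *MxCDX2* mouse lay below every control, with *MxCDX2* mouse 1 close to the lowest control and the other two far below it. The log2 fold change was -1.02 (SE 0.31, n = 3 mice per group), with an adjusted p-value of 0.0582 in edgeR and 0.0165 in DESeq2, so the call depended on the tool. Without *MxCDX2* mouse 1 the log2 fold change was -1.43 and the adjusted p-value 0.0103. The exact two-sided permutation p was 0.10, the smallest that 3 mice against 3 can give.

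*Gzma* (chr13:113093825-113100981, minus strand) encodes granzyme A, a tryptase of the granule. It had 437, 271 and 717 normalized counts in controls 1, 2 and 3 and 339, 97.0 and 201 in *MxCDX2* mice 1, 2 and 3. *MxCDX2* mouse 1 lay among the controls and the others below them, and the log2 fold change of -1.16 (SE 0.53, adjusted p = 0.167) was not past the threshold.

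*Gzmb* (chr14:56258838-56262260, minus strand) encodes granzyme B, which triggers apoptosis by cutting caspases and their substrates. Its normalized counts were 147, 106 and 286 in controls 1, 2 and 3 and 258, 209 and 112 in *MxCDX2* mice 1, 2 and 3, so that the groups covered nearly the same range. The log2 fold change was 0.10 (SE 0.47, adjusted p = 0.902), and its sign turned when control 1, control 2 or *MxCDX2* mouse 1 was left out (-0.01, -0.17 and -0.16).

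*Prf1* (chr10:61297833-61304680, plus strand) encodes perforin, the pore-forming protein of the granule. It had 327, 249 and 452 normalized counts in controls 1, 2 and 3 and 494, 97.0 and 119 in *MxCDX2* mice 1, 2 and 3. *MxCDX2* mouse 1 had the highest value of all 6 mice and the other two the lowest, which made *Prf1* the most divided of the granule genes. With all mice the log2 fold change was -0.54 (SE 0.64, adjusted p = 0.598), and without *MxCDX2* mouse 1 it was -1.66 with an adjusted p-value of 0.0331.

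*Klrb1c* (chr6:128778485-128789215, minus strand) encodes NK1.1, the C-type lectin-like receptor by which NK cells are recognised in C57BL/6 mice. Its normalized counts were 520, 600 and 1313 in controls 1, 2 and 3 and 343, 271 and 186 in *MxCDX2* mice 1, 2 and 3. All 3 *MxCDX2* mice lay below all 3 controls, and the wild-type mouse stood well above the other controls. The log2 fold change was -1.60 (SE 0.42, adjusted p = 0.0375, exact permutation p = 0.10), and without the wild-type mouse it was -1.05 and still called. The call was lost, with the direction kept, without control 2 (adjusted p = 0.0509) and without *MxCDX2* mouse 1, 2 or 3 (adjusted p = 0.0587, 0.107 and 0.124). It was also lost when the fold change itself was tested against the threshold of 1 (adjusted p = 0.319), whereas the adjusted p-value in DESeq2 was 0.00114. The *Klrb1* genes are a family of similar sequence, and the files list 0 reads with more than 1 alignment, so how reads shared between them were treated is not seen here.

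*Ncr1* (chr7:4337724-4345164, plus strand) encodes NKp46, an activating receptor that is nearly restricted to NK cells and related innate lymphoid cells. It had 349, 409 and 746 normalized counts in controls 1, 2 and 3 and 439, 231 and 156 in *MxCDX2* mice 1, 2 and 3. The groups overlapped through *MxCDX2* mouse 1, and the log2 fold change of -0.87 (SE 0.46, adjusted p = 0.226) was not past the threshold.

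*Klrk1* (chr6:129610323-129623864, minus strand) encodes NKG2D, an activating receptor for stress-induced ligands that is also carried by activated CD8 T cells. Its normalized counts were 657, 441 and 1008 in controls 1, 2 and 3 and 1017, 1093 and 677 in *MxCDX2* mice 1, 2 and 3. *MxCDX2* mice 1 and 2 lay just above the highest control, and mouse 3 lay within the range of the controls. Its log2 fold change, 0.40 (SE 0.33, adjusted p = 0.435), was the highest of the 10 and stayed above 0 with each mouse left out in turn, between 0.16 and 0.78.

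*Klrd1* (chr6:129591782-129598775, plus strand) encodes CD94, the partner chain of the NKG2 receptors that read a non-classical class I molecule. It had 387, 487 and 1171 normalized counts in controls 1, 2 and 3 and 403, 354 and 225 in *MxCDX2* mice 1, 2 and 3. The log2 fold change was -1.06 (SE 0.46, adjusted p = 0.148), and without the wild-type mouse it was -0.40, since controls 1 and 2 were close to *MxCDX2* mice 1 and 2.

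The transcription factor *Eomes* (chr9:118478212-118486132, plus strand) had 227, 244 and 441 normalized counts in controls 1, 2 and 3 and 358, 170 and 150 in *MxCDX2* mice 1, 2 and 3. Its log2 fold change was -0.43 (SE 0.43, adjusted p = 0.525), and -0.05 without the wild-type mouse. *Tbx21*, which encodes T-bet (chr11:97098071-97115331, minus strand), had 142, 186 and 330 normalized counts in controls 1, 2 and 3 and 173, 96.0 and 60.9 in *MxCDX2* mice 1, 2 and 3. Its mean normalized count was 219 ± 98.5 in the controls and 110 ± 57.1 in the *MxCDX2* mice (SD, n = 3), with an SE of 0.49 on the log2 fold change and an adjusted p-value of 0.191. In both factors *MxCDX2* mouse 1 lay among the controls and the other two below them.

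**Figure D2:**
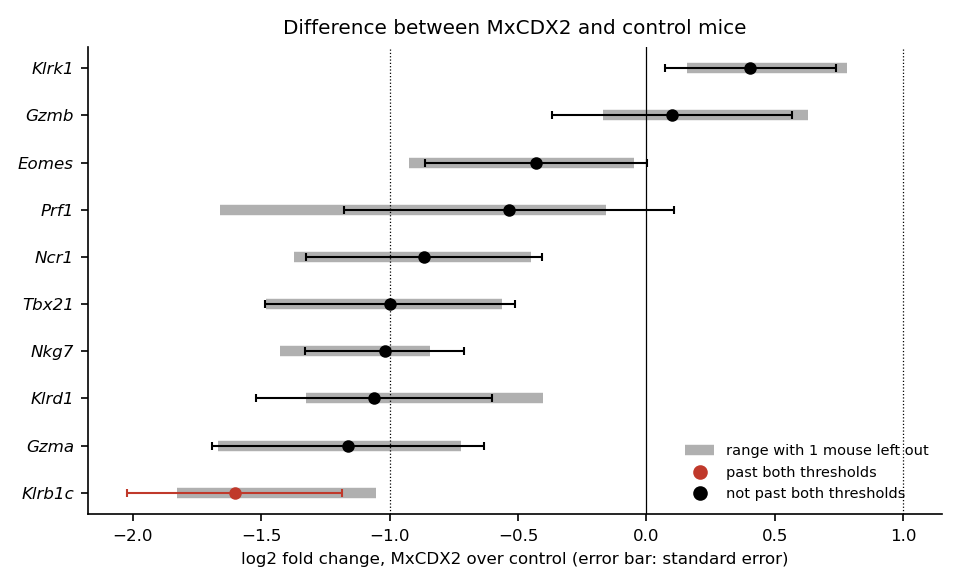
Log2 fold change of MxCDX2 over control mice for each gene (points, with the standard error as bar), and the range of this value when each of the 6 mice is left out in turn (grey band), with dotted lines at the thresholds of -1 and 1. Klrb1c, at -1.60, is past both thresholds, and the band of Prf1 runs from -1.66 (without MxCDX2 mouse 1) to -0.16 (without MxCDX2 mouse 2).

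Single mice carried much of the variation. The wild-type mouse was the highest control for 9 of the 10 genes, the exception being *Nkg7*, while it was the highest control for 41.2% of all tested genes. Its value was 2.68 times the mean of the other controls for *Klrd1*, 2.35 times for *Klrb1c* and 1.57 times for *Prf1*, but for *Nkg7* it lay between those of the other controls. *MxCDX2* mouse 1 was the highest of its group for 9 of the 10 genes, the exception being *Klrk1*, against 37.1% of all tested genes. On the log2 scale, the mean of the 10 genes, each centred on its own mean, was 0.12, -0.02 and 0.94 in controls 1, 2 and 3 and 0.27, -0.52 and -0.78 in *MxCDX2* mice 1, 2 and 3. On this mean, *MxCDX2* mouse 1 stood above controls 1 and 2, and *MxCDX2* mice 2 and 3 below all controls.

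Compared per length, as TMM-normalized CPM per kb of exon, *Nkg7* had the highest level of the 10 genes in both groups. It was 78.5 ± 16.2 in the controls and 38.7 ± 16.5 in the *MxCDX2* mice (SD, n = 3). In the controls the mean levels of the others followed in the order *Klrd1* (11.7), *Gzma* (10.4), *Ncr1* (7.16), *Klrb1c* (6.02), *Prf1* (2.92), *Gzmb* (2.75), *Klrk1* (2.15), *Tbx21* (1.94) and *Eomes* (1.61). In the *MxCDX2* mice the order of mean levels was *Klrd1* (5.61), *Gzma* (4.64), *Ncr1* (3.93), *Gzmb* (2.96), *Klrk1* (2.84), *Prf1* (2.01), *Klrb1c* (1.98), *Eomes* (1.20) and *Tbx21* (0.971). Neighbours in these orders overlapped between mice, except *Nkg7* and *Klrd1* in both groups and *Klrb1c* and *Prf1* in the controls, whose nearest mice had 3.86 and 3.85. *Klrb1c* stood above *Gzmb* and *Klrk1* in the mean of the controls and below them in that of the *MxCDX2* mice. Exon lengths were those of all isoforms joined, which lowers the level of a gene with long rare exons.

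Because *Ncr1* is the most NK-restricted receptor among the 10, the reads of each gene were also divided by the *Ncr1* reads of the same mouse, a measure that does not depend on the library size and that was chosen after the values had been seen. *Tbx21* kept the most even ratio. It was 0.407, 0.454 and 0.443 in controls 1, 2 and 3 and 0.394, 0.415 and 0.391 in *MxCDX2* mice 1, 2 and 3. The highest of these was 1.16 times the lowest, the narrowest spread among 15849 genes with reads in every mouse. *Eomes* ranked 15 in this order, with a highest ratio 1.62 times the lowest, *Klrd1* ranked 26 (1.71 times) and *Klrb1c* ranked 164 (2.25 times). *Klrk1* varied most among the 10, by 4.39 times, and 27.0% of genes had a narrower spread.

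The ratio to *Ncr1* did not overlap between the groups for 4 of the 9 genes, against 25.4% of genes over the whole table. *Klrk1* had 1.88, 1.08 and 1.35 reads per *Ncr1* read in controls 1, 2 and 3 and 2.32, 4.73 and 4.35 in *MxCDX2* mice 1, 2 and 3, a mean log2 difference of 1.37. *Gzmb* had 0.421, 0.260 and 0.384 in the controls and 0.589, 0.903 and 0.721 in the *MxCDX2* mice, a mean log2 difference of 1.06. Dividing by the same *Ncr1* reads shifts the log2 difference of every gene by the same amount, so that *Klrk1* and *Gzmb*, which had the highest fold changes, also come first here by construction. *Eomes* was also higher per *Ncr1* read in the *MxCDX2* mice, at 0.737 to 0.961 against 0.592 to 0.652, a mean log2 difference of 0.44.

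*Klrb1c* was lower relative to *Ncr1* in all 3 *MxCDX2* mice. It had 1.49, 1.47 and 1.76 reads per *Ncr1* read in controls 1, 2 and 3 and 0.783, 1.17 and 1.20 in *MxCDX2* mice 1, 2 and 3, a mean log2 difference of -0.60. Because the shift is the same for every gene, *Klrb1c*, which had the lowest fold change among the genes compared, comes last here by construction. Its place in this order is therefore not separate evidence of a fall. On this measure the wild-type mouse was close to the other controls, unlike in normalized counts. For each of the 4 genes the exact two-sided permutation p was 0.10, the smallest possible for 3 mice against 3, and 9 ratios were compared. The ratios of *Nkg7*, *Gzma*, *Prf1*, *Klrd1* and *Tbx21* overlapped between the groups.

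**Figure D3:**
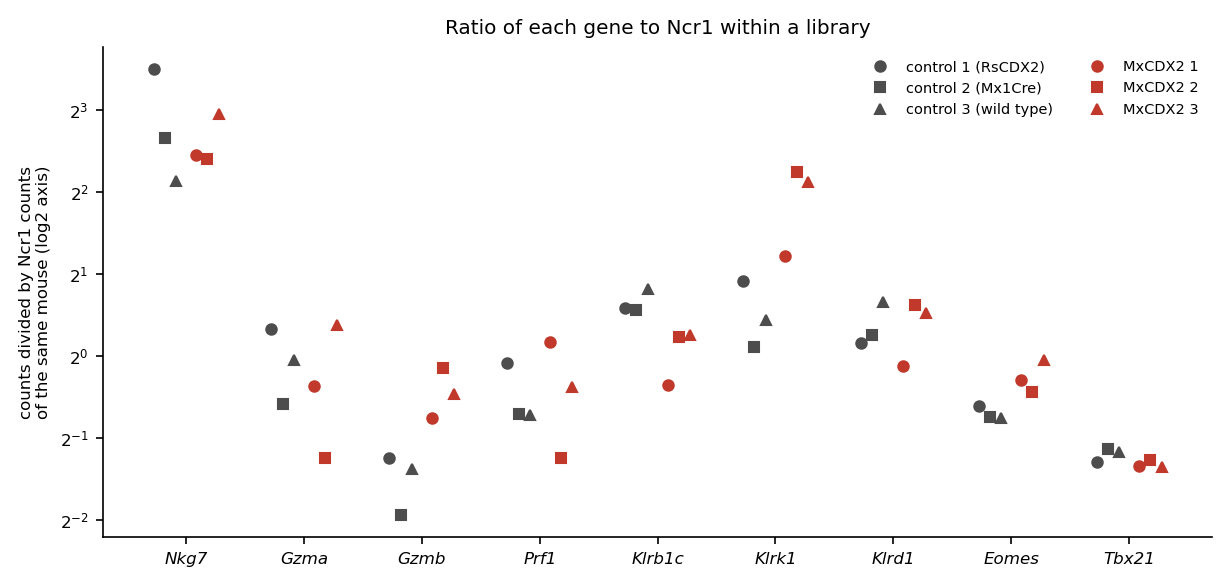
Reads of each of 9 genes divided by the Ncr1 reads of the same mouse (log2 axis), with points for the 3 control and 3 MxCDX2 mice and the shape naming the mouse within its group. The 6 points of Tbx21 lie between 0.391 and 0.454, and the groups are apart for Klrk1, Gzmb and Eomes (MxCDX2 higher) and for Klrb1c (MxCDX2 lower).

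The genes outside all lists whose profile over the 6 mice came nearest to the mean of the 10, measured as the root mean square difference of centred log2 CPM among 12959 genes with at least 1 CPM on average, were *Samd3* (0.0937), *Acsbg1* (0.143), *H2-Aa* (0.180), *Adamts5* (0.181) and *Cxcr3* (0.182). For the 10 genes themselves this distance was smallest for *Eomes* (0.157), *Ncr1* (0.164) and *Tbx21* (0.184) and largest for *Klrk1* (0.633), with a median of 0.388. *Samd3* had 153, 174 and 315 normalized counts in controls 1, 2 and 3 and 179, 103 and 81.0 in *MxCDX2* mice 1, 2 and 3, a log2 fold change of -0.82 (adjusted p = 0.211). *Cxcr3*, a chemokine receptor of NK and T cells, had 364, 380 and 770 in the controls and 457, 221 and 277 in the *MxCDX2* mice, a log2 fold change of -0.67 (adjusted p = 0.283). *H2-Aa*, a class II histocompatibility chain of antigen-presenting cells, shared the profile at far higher counts, from 8763 to 32272.

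*Klrb1c*, *Klrk1* and *Klrd1* lie in the NK gene complex, a cluster of lectin-like receptor genes, taken here as chr6:128609227-130386874. *Rosa26*, the site of the *CDX2* knockin, is on the same chromosome, 15.7 Mb from *Klrb1c* and 16.5 Mb from *Klrk1*. All *MxCDX2* mice carried the knockin and, of the controls, only control 1 did. Whether sequence linked to the knockin had a part in the values was not tested. The median log2 fold change of the 45 tested genes of the complex was -0.29, and these neighbours were examined after the values had been seen. Over all tested genes 13.6% were called, 4.59% higher and 9.03% lower. In the complex 9 of the 45 (20.0%) were called, 7 higher and 2 lower. The lower ones were *Klrb1c* and *Klrb1* (-1.87, with 3.48 to 23.7 normalized counts). *Klrb1f*, 0.257 Mb from *Klrb1c* and of the same receptor family, rose with a log2 fold change of 3.40 (SE 0.38, adjusted p = 0.00271), from 634, 337 and 268 normalized counts in controls 1, 2 and 3 to 3180, 5490 and 4346 in *MxCDX2* mice 1, 2 and 3. The lectin genes *Clec12a* (1.23), *Clec12b* (2.21) and *Clec7a* (2.27), of which *Clec7a* encodes the fungal glucan receptor of myeloid cells, also rose, as did *BC035044* (1.59), *Gm15987* (1.18) and *BC064078* (1.87). *Klrb1b* (-1.71, adjusted p = 0.133 in edgeR and 0.0410 in DESeq2) and *Klrb1a* (-0.60, adjusted p = 0.315 in edgeR) were below 0 too. Neither was called by edgeR, and *Klrb1b* was called by DESeq2. Thus the *Klrb1* genes nearest to *Klrb1c* were below 0 like it, while *Klrb1f* and several other genes of the complex rose. Further along the complex, *Klrd1* (-1.06) and *Klrk1* (0.40) were not called.

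**Figure D4:**
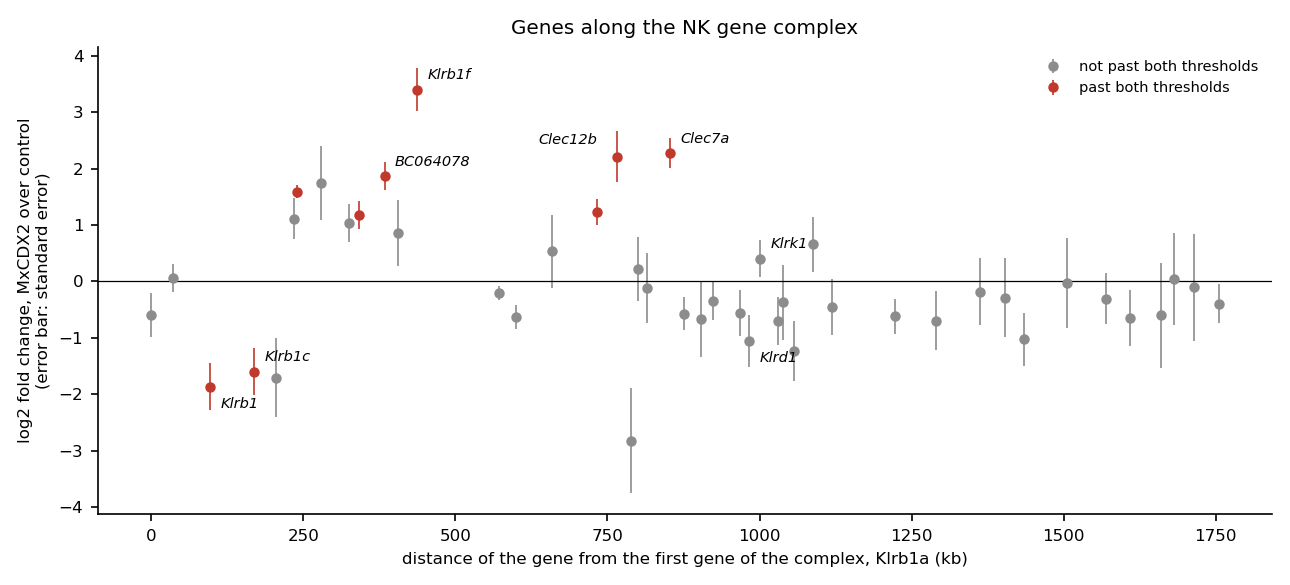
Log2 fold change of MxCDX2 over control mice (points, with the standard error as bar) for the 45 tested genes of the NK gene complex, against the distance in kb from its first gene, Klrb1a. Klrb1c and Klrb1 are the genes called lower, 7 genes including Klrb1f and Clec7a are called higher, and Klrd1 and Klrk1 are not past both thresholds.

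The sequence around the RefSeq start of these genes was examined for the core letters bound by RUNX factors (TGTGGT), T-box factors (GTGTGA) and CDX factors (TTTATG or TTTATA), on both strands, from 250 bases before to 50 bases after the start in RefSeq promoters (GRCm38.p6), a search chosen after the values had been seen. Promoters were matched for 9 of the 10 genes, and *Klrd1* was not analysed here. TGTGGT was found in 7 of the 9, namely *Gzma*, *Gzmb*, *Klrb1c*, *Klrk1*, *Ncr1*, *Nkg7* and *Prf1*, while 16.8% of all 32851 promoters and 13.5% of those of tested genes held it. The 7 of 9 counts genes, and the percentages count promoters. TGTGGT was absent from the windows of both factor genes. The longer form TGTGGTTT was found in *Gzma* alone, against 1.78% of all promoters and 1.27% of those of tested genes. All matches in the 9 lay before the RefSeq start, which is not the GENCODE start used for the positions above. The *Klrb1c* window begins 468 bases after the first GENCODE start, outside the exons, and 5 bases of the *Nkg7* window lie in a GENCODE exon. The match nearest to the start is shown for each of the 7 genes in 40-base windows, with capitals marking the core on either strand. The letters TGTGGT are shown because the granule genes and the analysed receptor genes had them in common.
Gzma (chr13:113101009-113101048, minus strand): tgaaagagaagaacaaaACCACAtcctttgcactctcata
Gzmb (chr14:56262346-56262385, minus strand): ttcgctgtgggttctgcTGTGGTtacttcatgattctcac
Nkg7 (chr7:43437038-43437077, plus strand): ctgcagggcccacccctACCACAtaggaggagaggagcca
Prf1 (chr10:61297689-61297728, plus strand): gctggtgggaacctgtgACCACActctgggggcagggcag
Klrb1c (chr6:128788708-128788747, minus strand): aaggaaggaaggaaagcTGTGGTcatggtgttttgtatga
Klrk1 (chr6:129623971-129624010, minus strand): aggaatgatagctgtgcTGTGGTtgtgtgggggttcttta
Ncr1 (chr7:4337657-4337696, plus strand): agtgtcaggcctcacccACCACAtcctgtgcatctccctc

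The genes with the letters include *Klrb1c*, which fell, and *Klrk1* and *Gzmb*, whose log2 fold changes were above 0. GTGTGA was found in *Gzmb*, *Ncr1* and *Nkg7*, 3 of the 9, against 14.5% of all promoters and 11.3% of those of tested genes, and the windows of *Gzmb* and *Ncr1* are shown since *Eomes* and *Tbx21* encode T-box factors. The match in *Nkg7* lies within a GENCODE exon and is not shown. The longer form GGTGTGA was found in *Nkg7* alone, against 3.98% of all promoters and 3.49% of those of tested genes.
Gzmb (chr14:56262335-56262366, minus strand): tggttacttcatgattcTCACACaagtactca
Ncr1 (chr7:4337618-4337657, plus strand): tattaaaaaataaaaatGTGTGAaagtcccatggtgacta

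TTTATG was found in the window of *Tbx21* alone among the 9, against 11.9% of all promoters and 6.95% of those of tested genes, and TTTATA in none of the 9, against 13.6% and 7.66%. The CDX forms share all letters but the last, and in the windows shown no RUNX match shares bases with a T-box match. A match describes the letters and does not show that a factor binds there.

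The other receptors of NK cells were described by a list of 34 tested genes, of which 1 was called higher and 2 lower. That was 8.82% of the list, against 13.6% of all tested genes. Of the 34 genes, 28 were below 0, and the median log2 fold change was -0.50. *Klrb1f*, given above, was the higher one. *S1pr5*, the sphingosine phosphate receptor by which NK cells leave the marrow, fell from 71.6, 136 and 100 normalized counts in controls 1, 2 and 3 to 24.4, 17.6 and 25.2 in *MxCDX2* mice 1, 2 and 3, with a log2 fold change of -2.19 (SE 0.36, adjusted p = 0.00836). *Itga2*, the integrin CD49b of NK cells and megakaryocytes, fell by 3.30 on the log2 scale from 427, 274 and 1656 to 158, 35.3 and 46.1, and this call was lost without control 1, control 3, *MxCDX2* mouse 2 or *MxCDX2* mouse 3. None of the 10 tested *Klra* genes, which encode the Ly49 receptors, was called, and their log2 fold changes lay between -1.03 and -0.02. These genes are close copies, so their reads are uncertain.

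Of 19 other tested cytotoxic and effector genes, 3 rose and 2 fell, with a median log2 fold change of -0.12. Called genes made up 26.3% of this list, against 13.6% of all tested genes. *Ctsc*, the protease that activates granzymes, rose by a log2 fold change of 1.05, *Lamp1*, a membrane protein of lysosomes and granules, by 1.04, and the chemokine *Ccl3* by 1.48. *Stx11*, a syntaxin needed for granule release, fell from 6327, 4949 and 7917 normalized counts in controls 1, 2 and 3 to 2775, 2094 and 2136 in *MxCDX2* mice 1, 2 and 3, a log2 fold change of -1.45 (SE 0.20, adjusted p = 0.00486). *Serpinb6b*, a granzyme inhibitor, fell by 1.03 on the log2 scale. Calls of *Stx11* stood with each mouse left out, and those of *Ctsc* were lost without control 2 or *MxCDX2* mouse 1, those of *Lamp1* without control 2 or *MxCDX2* mouse 3, those of *Ccl3* without control 1, control 2, *MxCDX2* mouse 2 or *MxCDX2* mouse 3, and that of *Serpinb6b* with any mouse left out. *Ctsc*, *Lamp1*, *Ccl3* and *Stx11* are used by myeloid cells too. Their counts, from 135 to 43301, cannot be ascribed to NK cells in bulk marrow.

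Among the 11 tested signalling adaptors, *Lat2*, an adaptor of B cells and myeloid cells, rose (log2 fold change 2.07) and no other was called. This made 9.09% of the adaptors, against 13.6% of all tested genes. *Tyrobp* (0.30) and *Hcst* (-0.40), the adaptors DAP12 and DAP10, were not past the threshold. Of 16 other transcription factors of NK cells, 31.2% were called, against 13.6% of all tested genes. *Tox2* (4.11) and *Zeb2* (1.25) rose and *Ets1* (-1.14), *Ikzf3* (-1.55) and *Stat4* (-1.22) fell. The last 3 calls were each lost without control 2, and those of *Ikzf3* and *Stat4* also without control 1, *MxCDX2* mouse 2 or *MxCDX2* mouse 3. *Tox2* rose from 31.9, 21.8 and 81.1 normalized counts in controls 1, 2 and 3 to 405, 1340 and 615 in *MxCDX2* mice 1, 2 and 3, while *Tbx21* and *Eomes* were not called. In the controls *Ets1* had 10229 to 16712 and *Zeb2* 3800 to 7304 normalized counts, against 227 to 441 for *Eomes*. The counts of these other factors cannot be ascribed to NK cells in bulk marrow.

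Of 18 tested genes for ligands and cytokines that NK receptors read, 4 rose and 2 fell, with a median log2 fold change of 0.39. Thus 33.3% of this list were called, against 13.6% of all tested genes. *Cd48* (1.46), the ligand of 2B4, *Pvr* (1.29) and *Nectin2* (1.48), ligands of DNAM-1 and TIGIT, and *Il15ra* (1.47), which presents interleukin 15 to NK cells, rose. *Cadm1* (-1.67), the ligand of CRTAM, and the cadherin *Cdh1* (-2.42), a ligand of KLRG1, fell. The ligands of NKG2D that were tested, *Raet1e* (1.15), *Ulbp1* (0.39) and *H60b* (0.38), were not past the threshold, and neither was *Il15* (-0.30). The call of *Pvr* was lost without *MxCDX2* mouse 3, that of *Cadm1* without control 1, *MxCDX2* mouse 2 or *MxCDX2* mouse 3, and that of *Nectin2* with any mouse left out except control 3.

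**Figure D5:**
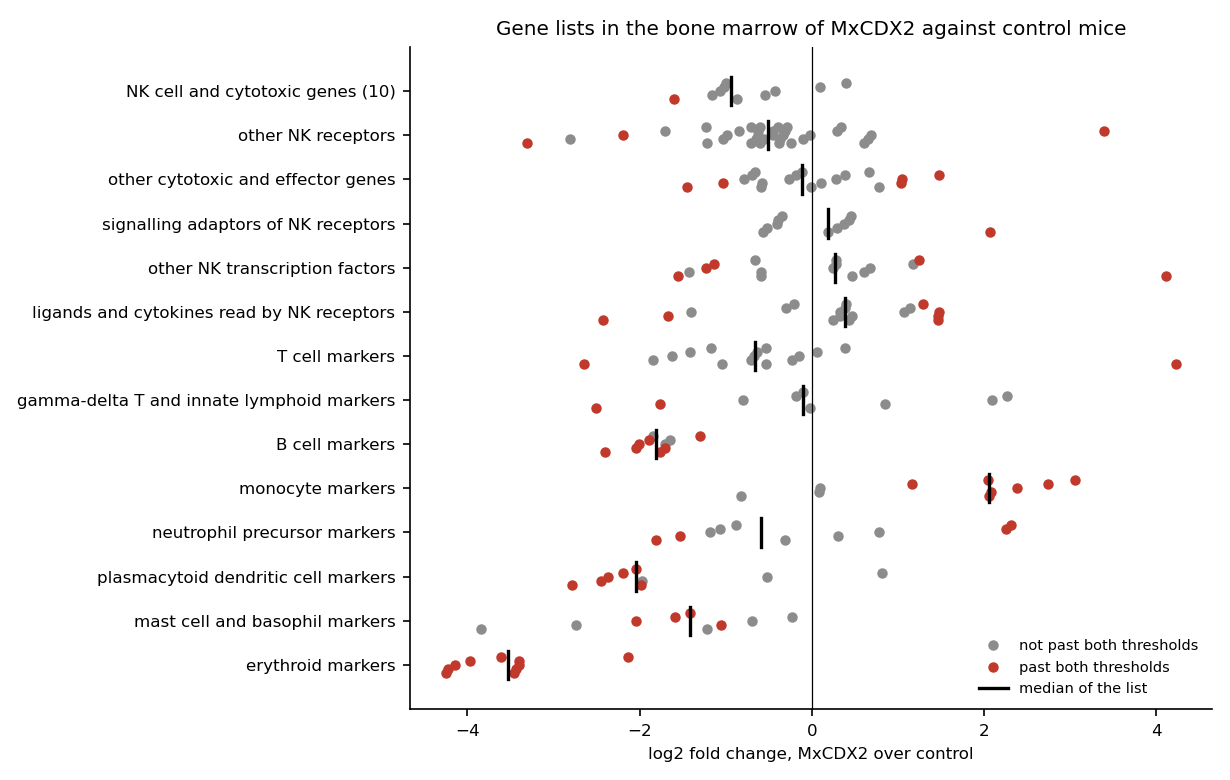
Log2 fold change of MxCDX2 over control mice for every tested gene of the 10 NK cell and cytotoxic genes, of 5 further NK lists and of 8 marker lists of other cells, with a line at the median of each list and red points past both thresholds. The 10 genes have a median of -0.93, between T cell markers at -0.65 and mast cell and basophil markers at -1.42, and erythroid (-3.53) and monocyte (2.06) markers lie at the ends.

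Markers of other cell types moved in the same libraries, and their part in the values of the 10 genes was not tested. Of 16 T cell markers 1 rose, *Cd28* (4.23), and 1 fell, *Cd4* (-2.64), with a median log2 fold change of -0.65 and *Cd3e*, which encodes a chain of the T cell receptor complex, at -0.67 (adjusted p = 0.270). The wild-type mouse was the highest control for 13 of the 16. Their summed normalized counts ranged from 5960 to 12412 in the controls and from 9442 to 11125 in the *MxCDX2* mice. *Cd28* alone gave 217 to 528 of these in the controls and 4675 to 8828 in the *MxCDX2* mice. Without it, a sum taken after the values had been seen, the range was 5688 to 11884 in the controls and 2297 to 4859 in the *MxCDX2* mice, which then did not overlap. The sum without *Cd28* still held *Cd4*, with 1093 to 4068 normalized counts in the controls and 272 to 473 in the *MxCDX2* mice. Taken singly, 5 of the 16 markers did not overlap between the groups, against 42.1% of all tested genes. Of 9 tested markers of gamma-delta T cells and innate lymphoid cells 2 fell, with summed counts of 4581 to 7010 in the controls and 2223 to 3768 in the *MxCDX2* mice. The list was mixed, with 6 genes below 0, 3 above 0, a median log2 fold change of -0.10 and a range of -2.50 to 2.27. B cell markers fell in 7 of 10 (summed counts 24929 to 63789 against 6726 to 17763), plasmacytoid dendritic cell markers in 6 of 9 (25734 to 34969 against 13849 to 15702), mast cell and basophil markers in 4 of 9 (22263 to 57609 against 6852 to 14516) and erythroid markers in 10 of 10 (905894 to 1008730 against 27581 to 113595). Monocyte markers rose in 7 of 10 (69016 to 104493 against 312108 to 383560), and neutrophil precursor markers rose in 2 and fell in 2 of 10 (1220620 to 2142950 against 753594 to 952332). Over all tested genes 9.03% were called lower and 4.59% higher. No marker of these lists was at 0 in every mouse.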

How the data were processed

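The authors aligned stranded poly(A) RNA-seq reads to GRCm38 with STAR 2.5 and counted them per gene with HTSeq 0.6.1 (bcl2fastq 2.17.1.14 made the reads). They deposited raw counts of each mouse, without normalization. Reads without a gene (9.22% to 14.1%) or ambiguous between genes (2.99% to 3.16%) stayed out of the library sizes. Groups came from the sample labels. Symbols, positions and exon lengths came from GENCODE M21, where 37693 identifiers were found.

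The tests were run with edgeR 4.0.16 in R 4.3.3 (filterByExpr, TMM, then glmQLFit and glmQLFTest) and Benjamini-Hochberg adjustment. Standard errors (SE) of log2 fold changes are the absolute fold change over the square root of F. Alternatives were DESeq2 1.42.0, edgeR with the size factors of DESeq2 or with total counts alone, a filter of 1 count in any mouse or of 10 counts in every mouse, glmTreat against a log2 fold change of 1, and fits that leave out each mouse. The profile distance used log2 CPM with a prior of 0.5 CPM. The members and gene lists were chosen with earlier results of these data known.

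The genes named were the 10 members, the called genes of the 5 other NK lists, defining markers of other cells and the 5 nearest profiles, and other genes are named as chosen after their values were seen or as values of a list beside them. On simulated counts of this comparison, over 15721 genes, edgeR found 171 of 200 genes changed 4-fold, with 3 false calls. It made 0 calls over 15710 genes with none changed. The simulated spread followed the trend over all genes, without single outlying mice or differences between control genotypes. The changed genes were taken from the better counted ones. These rates therefore need not hold for the 10 members. Within each group every pair of mice differed by far more than sampling noise (chi-square per degree of freedom from 65.8 to 227). With these depths the spread between mice, more than counting error, limits the precision. Python 3.11.15 with numpy 2.4.6, pandas 2.3.3, scipy 1.17.1 and matplotlib 3.10.9 made the tables and figures.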

Additional observations from a re-analysis of the deposited data

How the results depend on the processing

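Over the 12 alternatives, 109 of 120 log2 fold changes of the 10 genes kept their direction and their side of the thresholds, 3 passed newly, 5 no longer passed and 3 turned, all of the last in *Gzmb* (-0.01 without control 1, -0.17 without control 2 and -0.16 without *MxCDX2* mouse 1, in a range of -0.17 to 0.63 over the 6 fits). The 3 new calls were *Nkg7* in DESeq2 and *Nkg7* and *Prf1* without *MxCDX2* mouse 1, and the 5 lost ones were *Klrb1c*. DESeq2 called 2 of the 10 genes, 5 of the other NK receptors and 5 T cell markers. The test against a log2 fold change of 1 called 611 genes in all in place of 2177, and 0 of the 10 genes. It called 1 gene each of the other NK receptors, the signalling adaptors, the other NK transcription factors and the ligands and cytokines. Of the markers it called 1 T cell, 1 plasmacytoid dendritic cell, 5 monocyte and 6 erythroid ones. It called 0 of the other cytotoxic genes and of the gamma-delta T and innate lymphoid, B cell, neutrophil precursor, and mast cell and basophil markers. A stricter null value is the construction of that test, and the cause of the other shifts was not tested.

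With 1 mouse left out, 1205 to 2406 genes were called in all, the lowest without *MxCDX2* mouse 3. The same range was 0 to 2 for the 10 genes, 2 to 5 for the other NK receptors and 1 to 4 for the other cytotoxic genes. It was 2 to 6 for the other transcription factors and 3 to 7 for the ligands and cytokines, and always 1 for the signalling adaptors. For the marker lists it was 1 to 4 (T cell), 0 to 3 (gamma-delta T and innate lymphoid), 1 to 10 (B cell) and 5 to 8 (monocyte). It was 0 to 7 (neutrophil precursor), 1 to 7 (plasmacytoid dendritic), 1 to 2 (mast cell and basophil) and 6 to 10 (erythroid) for the others. Other size factors, total counts and both filters on low counts moved none of these counts by more than 1.5 times. No paired analysis was possible because the titles of the control mice carry no replicate number. Each of the 10 genes had at least 70 reads in every mouse.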
